A study of Mus musculus with 8 samples.

Results

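Receptors of the gp130 cytokine family, the kinases and transcription factor they use, and the suppressors of cytokine signalling (SOCS) that switch them off were examined in mouse quadriceps after sustained hypoxia. The members were 10 genes chosen by name, Il6ra, Il6st, Osmr, Lifr, Jak1, Jak2, Stat3, Socs1, Socs2 and Socs3, and every probe set that the array annotation pairs with exactly 1 of these symbols was taken, which gave 31 of 45037 probe sets. Hypoxia muscle came from adult male C57Bl/10 mice held 2 weeks in a sealed chamber, where oxygen was lowered from 21% to 8% in the course of the first week and then stayed at 8% for 7 days. Control muscle came from mice of the same strain, sex and age class kept in room conditions for the same 2 weeks, and neither group carried a genetic change. Each group had 4 RNA samples of whole quadriceps, a thigh muscle, and each sample was read on 1 Affymetrix array. A chamber is mentioned for hypoxia alone, so chamber and low oxygen cannot be told apart. The labels do not state whether each sample stands for another animal, so p-values measure only the spread between these samples, which may be technical.

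Cytokines of the interleukin 6 family bind a receptor of their own and then recruit gp130, the shared signalling chain encoded by Il6st. Janus kinases (JAKs) on the receptor tails phosphorylate STAT3, which enters the nucleus and induces its targets, among them Socs3, whose product binds gp130 and the JAKs and ends the signal. In skeletal muscle the pathway is known for its part in the exercise response, in satellite cell function and in the wasting that accompanies inflammation.

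Values are MAS5 signals, the brightness that Affymetrix's software gives a set of short oligonucleotide probes, on a linear scale set to the same trimmed mean on every array. Differences are hypoxia minus control on log2(signal + 16), which understates the change of dim probe sets, with standard errors (SE) from limma, and a probe set is called higher or lower when its adjusted p is under 0.05. Of the 31 probe sets 27 lay above the filter on dim signals, at about 90.2, and were tested. They read 9 of the 10 genes, since the 1 probe set of Socs1 was below it. Probe sets have different probes, so their levels cannot be set against each other. In the names, the ending a marks probes shared by transcripts of 1 gene, s probes shared by several transcripts, and x probes that can bind unrelated ones.

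Signs of RNA quality and cell makeup differed along the groups. For Gapdh, the control probe set at the transcript's 3' end over that at its 5' end, a ratio that grows with RNA breakage, was 3.44 in hypoxia 1 and 0.801 to 0.874 in hypoxia 2 to 4, against 0.776 to 0.807 in control. For beta-actin it was 1.40 to 2.53 in hypoxia and 1.09 to 1.25 in control. All 7 muscle fibre markers were well above the filter, and their summed signal was 261069 to 352195 in hypoxia and 387915 to 469845 in control. All 5 fibroblast markers were lower, with sums of 13617 to 18207 in hypoxia and 36342 to 48253 in control. Neutrophil markers summed to 2879.7 to 5357 in hypoxia and 548 to 895 in control over the 6 of 8 with a probe set. This rested on S100a8 and S100a9, while Csf3r and Elane did not pass and Mpo and Cxcr2 were below the filter. Adipocyte markers summed to 948 to 3530.5 in hypoxia and 2785.5 to 17573 in control, over the 2 of 4 markers with a probe set. Macrophage sums overlapped, at 9099.7 to 15859 in hypoxia and 9952 to 14676 in control, but their markers moved in opposite directions. Cd68, a lysosomal protein, rose by 3.93 (adjusted p = 1.6e-07), while Csf1r (-0.88) and Adgre1 (-0.85) fell and the other 5 of 8 were not called. Lymphocyte sums were 800.4 to 937 in hypoxia and 1006.5 to 1186 in control, although none of the 3 markers above the filter was called by limma (0 at an unadjusted p under 0.05). Endothelial sums overlapped, at 2734 to 5611 in hypoxia and 3435 to 6507 in control. The part of RNA quality and of these cell types in the results that follow was not tested, and in whole muscle fewer cells of a type and less RNA per cell cannot be told apart.

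After hypoxia the transcripts of the kinases Jak1 and Jak2 were lower. Those of the oncostatin M receptor Osmr, of Stat3 and of Socs3 were called higher on some but not all of their probe sets. Of the 27 tested probe sets 11 were called, 4 higher and 7 lower (40.7%), where 28.8% of all 27022 tested probe sets were called, 12.5% higher and 16.4% lower. The groups did not overlap on 11 of the 27, with hypoxia above control on 5 and below it on 6. Over all tested probe sets this was so for 30.1%, with 13.1% above and 17.0% below. The median difference was 0.16 over the members' probe sets and -0.04 over all. Without hypoxia 1, the same 11 probe sets were called.

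**Figure D1:**
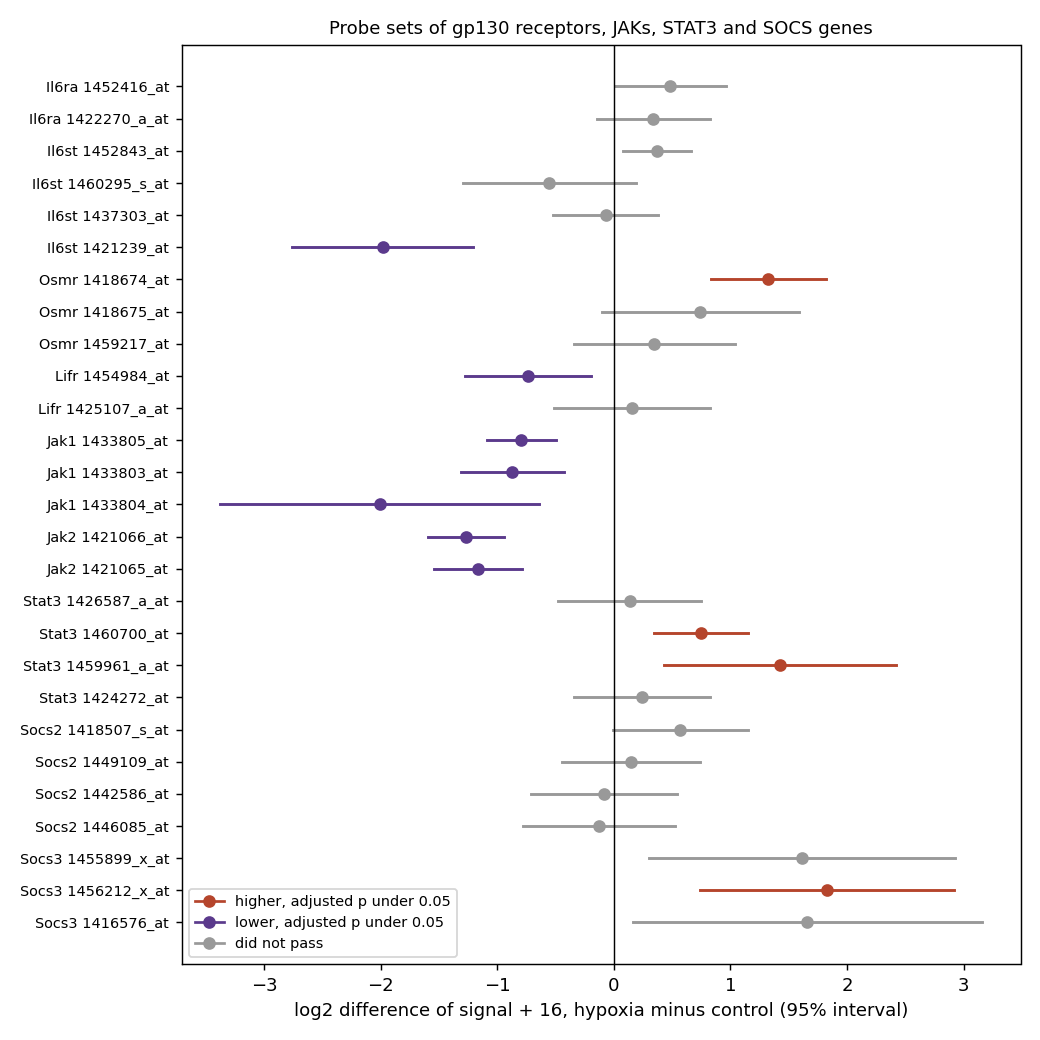
Log2 difference of signal + 16, hypoxia minus control, with its 95% interval, for each of the 27 tested probe sets in rows by gene; colours mark those called higher, called lower or not passing an adjusted p of 0.05. All 5 probe sets of Jak1 and Jak2 lie left of 0, the 3 of Osmr and the 3 of Socs3 lie right of it, and those of Il6st lie on both sides.

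Among the receptors, Osmr had the smallest p. Its product pairs with gp130 to form the receptor of oncostatin M, a cytokine released mainly by leukocytes. On probe set 1418674_at the signal was 1704, 1442.5, 1531.5 and 1729.6 in hypoxia 1 to 4, against 693, 555, 976 and 411 in control 1 to 4. Every hypoxia array was above every control array. The means were 1602 ± 138 in hypoxia and 659 ± 241 in control (SD, n = 4 each), a 2.51-fold rise (log2 difference 1.33 ± 0.23 SE, adjusted p = 0.000869). The 2 other Osmr probe sets were dim and pointed the same way without passing. Probe set 1418675_at had 96.3, 132, 324 and 255 in hypoxia, against 101.5, 104, 160.0 and 62.8 in control (0.74 ± 0.39, adjusted p = 0.179). The groups overlapped there, since hypoxia 1 and hypoxia 2 fell within the control range. Probe set 1459217_at ranged from 115 to 161 in hypoxia and from 63.2 to 153 in control (0.35 ± 0.32, adjusted p = 0.457).

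Lifr encodes the receptor chain for leukaemia inhibitory factor, which also pairs with gp130. Its bright probe set 1454984_at read 4833, 1842, 2538.5 and 3304 in hypoxia, against 5104, 4034.5, 6045 and 4677 in control. Hypoxia 1 lay inside the control range and the other 3 hypoxia arrays below it. The fall was 1.67-fold (-0.74 ± 0.25 SE, adjusted p = 0.0429). It was -0.98 without hypoxia 1 (adjusted p = 0.00310) and was not called without hypoxia 2 (-0.51, adjusted p = 0.125), nor when hypoxia 3 or 4 or control 1, 3 or 4 was left out. The other tested Lifr probe set, 1425107_a_at, ranged from 92.8 to 206 in hypoxia and from 96.8 to 196 in control (0.16 ± 0.31, adjusted p = 0.750). Probe set 1450207_at lay below the filter, with 11.4 to 96.5 in hypoxia and 32.7 to 181 in control, and was not tested.

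**Figure D2:**
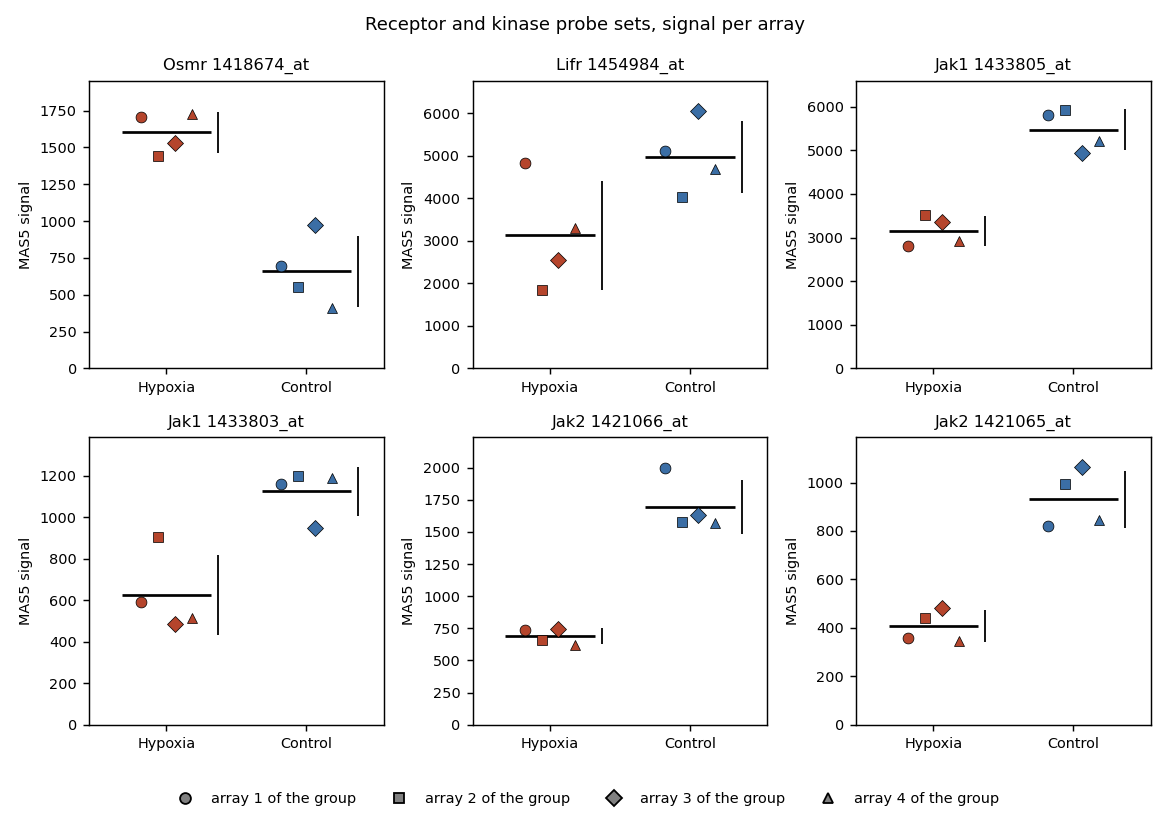
MAS5 signal per array, linear axis from 0, for probe sets of Osmr, Lifr, Jak1 and Jak2, with hypoxia left and control right; symbols number the arrays within a group, horizontal lines are means and vertical lines ± 1 SD (n = 4). The groups are apart on the probe sets of Osmr, Jak1 and Jak2 shown here, while hypoxia 1 of Lifr, at 4833, lies among the control arrays.

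Il6ra encodes the chain that binds interleukin 6 itself. Probe set 1452416_at had 352, 347, 433 and 348 in hypoxia, against 171, 281, 335 and 276 in control. All hypoxia values were above all control values, by a small margin, and the difference of 0.49 ± 0.22 did not pass (95% interval 0.0083 to 0.96, adjusted p = 0.121). Probe set 1422270_a_at had 289, 389.8, 327 and 239 in hypoxia, against 247.5, 184, 307 and 232 in control, with overlap between the groups (0.34 ± 0.22, adjusted p = 0.283).

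The 4 probe sets of Il6st, the gene of gp130, did not move alike. The brightest, 1452843_at, had 3667, 3314, 3861 and 3625 in hypoxia, against 3037, 3063, 2661 and 2439.8 in control. The groups were apart, and the difference of 0.37 ± 0.13 came close to the threshold without passing (adjusted p = 0.0565). Probe set 1421239_at went the other way, with 42.4, 138.5, 182 and 144 in hypoxia, against 348, 464, 535 and 709 in control. Every hypoxia array was below every control array there, a 3.95-fold fall (-1.98 ± 0.36 SE, adjusted p = 0.00125). Without hypoxia 1, the lowest array, the fall was -1.60 and still called (adjusted p = 0.000485). With these probe sets apart in opposite directions, the direction of Il6st is uncertain. Probe set 1460295_s_at, which the annotation derives from the same source sequence as 1421239_at, had 529, 1342.5, 2438 and 1547.5 in hypoxia, against 1831, 1858, 1843 and 2044 in control. Its control values were close together and its hypoxia values lay on both sides of them (-0.56 ± 0.34, adjusted p = 0.255). Without hypoxia 1 its difference was -0.14, and without hypoxia 3 it was called lower (-0.86, adjusted p = 0.0472). Probe set 1437303_at ranged from 782 to 1276 in hypoxia and from 837 to 1351 in control (-0.07 ± 0.21, adjusted p = 0.840), and its sign turned under quantile normalization and median centring.

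**Figure D3:**
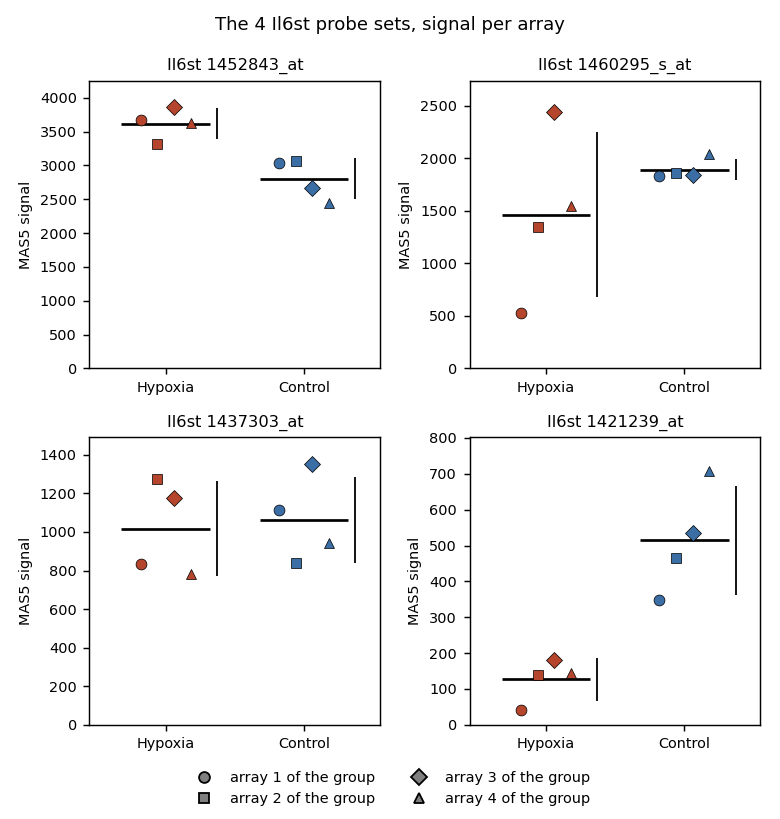
MAS5 signal per array, linear axis from 0, for the 4 Il6st probe sets, hypoxia left and control right; symbols number the arrays, horizontal lines are means and vertical lines ± 1 SD (n = 4). Hypoxia lies above control on 1452843_at and below it on 1421239_at, and the groups overlap on the other 2.

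Both Janus kinases were lower on every probe set. Jak1 is the main kinase of gp130, and the annotation derives its 3 probe sets from the same source sequence. The brightest, 1433805_at, had 2810.2, 3518, 3365 and 2923 in hypoxia, against 5811, 5925.5, 4947 and 5208 in control. The groups were far apart relative to their spread, with means of 3154 ± 341 in hypoxia and 5473 ± 471 in control (SD, n = 4 each), a 1.73-fold fall (-0.79 ± 0.14 SE, adjusted p = 0.000881). Probe set 1433803_at had 592, 907, 483.5 and 516 in hypoxia, against 1161, 1197, 949.6 and 1188 in control. The groups were apart again, with hypoxia 2 nearest to control (-0.87 ± 0.20, adjusted p = 0.00635). On probe set 1433804_at hypoxia 1 was almost dark, at 11.5, and the other hypoxia arrays had 289, 355 and 234, against 569, 659.9, 688 and 715 in control. The difference there was -2.01 ± 0.63 (adjusted p = 0.0308) and -1.14 without hypoxia 1 (adjusted p = 0.000810).

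Jak2 is the kinase of the growth hormone, prolactin and erythropoietin receptors and also associates with gp130. Its probe set 1421066_at gave the smallest p of all members, with 739, 659.7, 745 and 620.2 in hypoxia, against 2001, 1574.5, 1630.5 and 1567 in control. The highest hypoxia array was far below the lowest control array. The means were 691 ± 61.2 in hypoxia and 1693 ± 207 in control (SD, n = 4 each), a 2.41-fold fall (-1.27 ± 0.15 SE, adjusted p = 6.18e-05). Its other probe set, 1421065_at, had 359, 440.2, 482 and 347 in hypoxia, against 820.4, 993, 1063 and 844.5 in control. The groups were again apart, and the fall was nearly as large (-1.17 ± 0.17, adjusted p = 0.000327).

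Stat3 encodes the transcription factor that gp130 activates. On probe set 1460700_at the signal was 959.6, 1408, 1330.1 and 1047 in hypoxia, against 855, 746, 602 and 591 in control. Every hypoxia array was above every control array, a 1.68-fold rise (0.75 ± 0.18 SE, adjusted p = 0.00893). The dim probe set 1459961_a_at had 285, 337, 414 and 247 in hypoxia, against 163, 222, 123 and 23.4 in control. It was called too (1.42 ± 0.46, adjusted p = 0.0343), with control 4 the lowest array. The brightest Stat3 probe set, 1426587_a_at, had 807, 1455.5, 2553 and 1399.9 in hypoxia, against 1744.5, 1231, 1140.3 and 1179 in control. The hypoxia values lay on both sides of the control values, and the difference of 0.13 ± 0.28 did not pass (95% interval -0.48 to 0.75, adjusted p = 0.768). It was -0.14 without hypoxia 3, the highest array. Probe set 1424272_at was dim in both groups, with 111 to 199 in hypoxia and 110.3 to 137 in control (0.24 ± 0.27, adjusted p = 0.549). The rise of Stat3 was thus seen on 2 of 4 probe sets and is uncertain in size.

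Socs3, the inhibitor that STAT3 itself induces, had the largest positive differences among the members, with standard errors of 0.50 to 0.69. Probe set 1456212_x_at had 1984, 2460.1, 5133 and 669.8 in hypoxia, against 765, 952, 360.0 and 369 in control. Hypoxia 1 to 3 were above every control array, while hypoxia 4 lay within the control range. The means were 2562 ± 1874 in hypoxia and 611 ± 295 in control (SD, n = 4 each), and the rise was called (1.83 ± 0.50 SE, adjusted p = 0.0157). Probe set 1455899_x_at had 3734, 3323, 9790.4 and 639 in hypoxia, against 887, 1618, 665 and 899 in control. Hypoxia 3 was again the highest array, hypoxia 4 was below every control array, and the difference of 1.61 ± 0.61 did not pass (adjusted p = 0.0643). Probe set 1416576_at had 405, 799, 2805 and 248 in hypoxia, against 269, 546, 54.5 and 211 in control (1.66 ± 0.69, adjusted p = 0.0933). Without hypoxia 4 all 3 were called, with differences of 2.36, 2.34 and 2.14 (adjusted p = 0.00118, 0.000946 and 0.0415). Without hypoxia 3 the differences were 1.39, 1.04 and 0.998, of which the first was called (adjusted p = 0.0334). Without control 4 none was called, and 1456212_x_at had an adjusted p of 0.0515.

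**Figure D4:**
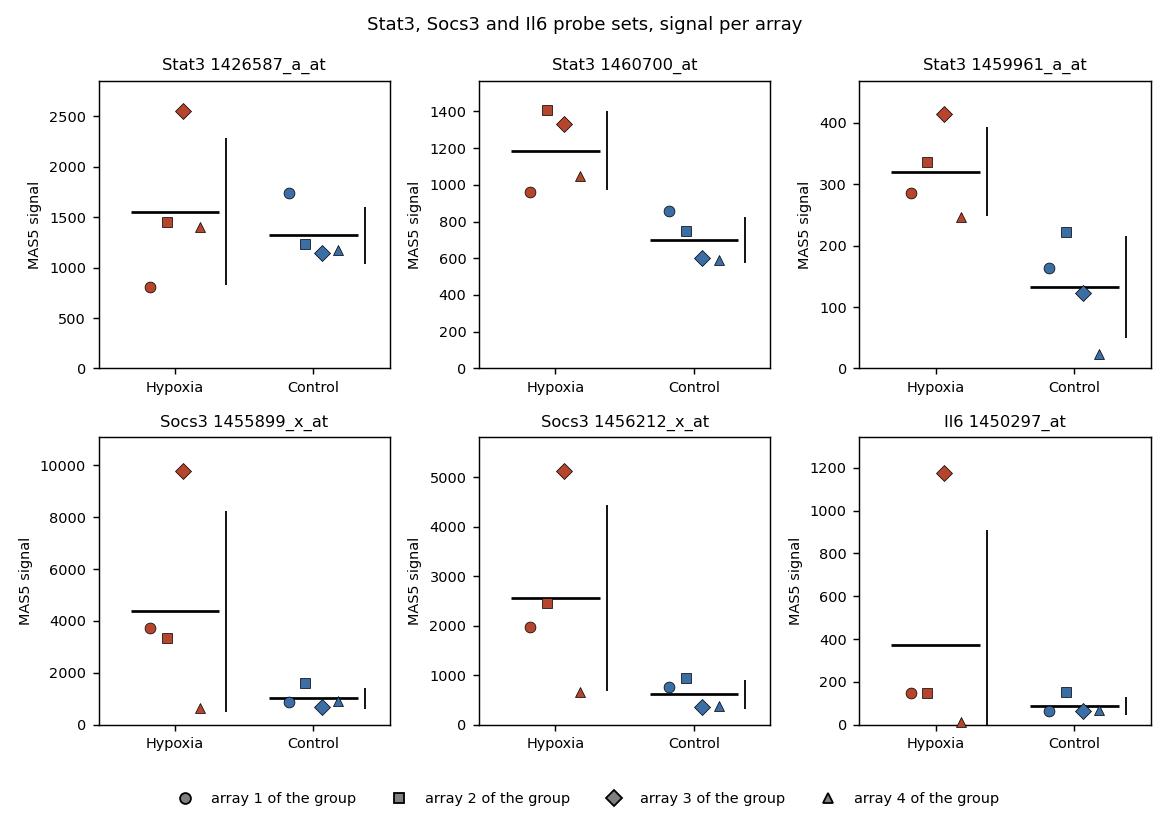
MAS5 signal per array, linear axis from 0, for 3 Stat3 probe sets, 2 Socs3 probe sets and the Il6 probe set, hypoxia left and control right; symbols number the arrays, horizontal lines are means and vertical lines ± 1 SD (n = 4), the Il6 line being cut at 0. Hypoxia 3 (diamond) is the highest array on both Socs3 probe sets, on Il6 and on 2 of the 3 Stat3 probe sets, and hypoxia 4 (triangle) is the lowest hypoxia array of Socs3 and Il6. Il6 is dim on all arrays but hypoxia 3.

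STAT3 and related factors recognise the palindrome TTCNNNGAA, where N is any base, and promoter sequence was searched for it because Socs3 is a textbook STAT3 target. RefSeq windows of build GRCm38.p6, from 250 bases before to 50 bases after an annotated gene start, were on hand for 9 of the 10 genes. The pattern, which with N as any base is the same on both strands, was found in 1 of the members' 10 windows, that of Socs3. Of all 32851 windows 8.30% held it, so 1 match among 10 is near the share over all. The match begins 154 bases before the annotated start, and is shown with 10 bases on either side and the matched letters in capitals. The stretch shown, flanks included, lies on the minus strand at chr11:117969502-117969530.
Socs3: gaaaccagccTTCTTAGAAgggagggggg
The RefSeq record of Socs3 extends further upstream than the start used for this window, so the window need not be the promoter in use in muscle. A match is a description of letters and not of binding.

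The other SOCS genes among the members, Socs1 and Socs2, gave no called probe set. Socs2, an inhibitor of growth hormone signalling, had 6 probe sets, of which 4 were tested. Its probe set 1418507_s_at had 1623, 1212, 923 and 1303 in hypoxia, against 657, 1137, 528 and 1194 in control. The groups overlapped through control 2 and 4 (0.57 ± 0.27, 95% interval -0.0047 to 1.15, adjusted p = 0.131). Probe set 1449109_at ranged from 773 to 1096 in hypoxia and from 455 to 1294 in control (0.15 ± 0.27, adjusted p = 0.736). Probe sets 1442586_at and 1446085_at differed by -0.08 ± 0.29 and -0.13 ± 0.30, and below the filter 1438470_at ranged from 28.0 to 94.2 in hypoxia and from 100.7 to 160.4 in control, and 1441476_at from 12.7 to 67.4 in hypoxia and from 29.1 to 104.8 in control. Socs1, an inhibitor of interferon signalling, had 30.1, 46.2, 120.3 and 64.1 in hypoxia, against 139, 72.6, 25.4 and 24.1 in control. The groups overlapped, and with its mean below the filter Socs1 was not tested.

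The genes whose pattern over the 8 arrays came closest to the 3 members with the smallest p were named by the root mean square difference of log2 values after the control mean was subtracted, among 12486 genes. The patterns closest to that of Jak2 were those of Crispld2 (0.107), Nexn (0.130), an actin-binding protein of the Z-disc, and Pcbp4 (0.149). Closest to Osmr were Acer2 (0.209), a ceramidase, Glul (0.210), which encodes glutamine synthetase, and Mkrn1 (0.221). Closest to Jak1 were Znhit3 (0.0952), Tdrp (0.104) and Acvr2b (0.109), a receptor of activins and myostatin.

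Genes that act with the members were described from 6 lists, each gene by its brightest tested probe set. Of all 13257 genes read in this way 31.9% were called, 14.0% higher and 17.8% lower, with a median difference of -0.04. Among the ligands 6 of 8 were tested and 1 was called. Ctf1, which encodes cardiotrophin 1, fell to 515, 384, 522 and 425 in hypoxia, against 745, 747, 742 and 847 in control (-0.73 ± 0.16, adjusted p = 0.00523). The groups did not overlap. Il6 had 150.2, 149.6, 1175 and 10.6 in hypoxia, against 64.8, 153, 62.6 and 68.1 in control (0.82 ± 0.84, adjusted p = 0.515). Hypoxia 3 had by far the highest Il6 signal and also the highest signal of every Socs3 probe set. On the other arrays Il6 was dim, and its 10.6 in hypoxia and 64.8, 62.6 and 68.1 in control were below the filter's level. What Il6 and Socs3 share here thus rests on 1 array and was not tested. Lif, Osm, Il11 and Clcf1 were dim too and not called, and Cntf and Il27 had no probe set with 1 symbol. By limma no ligand was higher, at an unadjusted p under 0.05 either.

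Of the other receptors and related chains in the family 3 of 6 were tested and 1 was called. Cntfr, the binding chain for ciliary neurotrophic factor, fell to 253, 215, 237 and 151 in hypoxia, against 641, 507, 375.5 and 426 in control (-1.13 ± 0.23, adjusted p = 0.00253). No hypoxia value reached the control range, but a second probe set differed by -0.13 and was not called. Lepr and Ebi3 were not called, Il27ra was below the filter, and Il11ra1 had no probe set with 1 symbol. Of the other JAK and STAT genes 5 of 8 were tested and 0 were called by limma, with 1 higher and 1 lower at an unadjusted p under 0.05. These were Stat5a (0.47 ± 0.18, adjusted p = 0.0649), which was called after quantile normalization or median centring, and Stat6 (-0.42 ± 0.17, adjusted p = 0.0774), both named after their values were seen.

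Among the other inhibitors and adaptors all 17 were tested, with 3 higher and 3 lower (median -0.0041). Pias2, a SUMO ligase of the family that restrains STAT factors, rose to 3008, 2694, 1978 and 2871 in hypoxia, against 910.2, 1108, 1011 and 1092 in control (1.33 ± 0.16, adjusted p = 8.07e-05). Its other probe sets differed by 0.23, not called, and -0.74, called lower, so its direction is uncertain. Socs6 (0.86 ± 0.22, adjusted p = 0.0109) and Adam10 (0.67 ± 0.18, adjusted p = 0.0128) rose, and Socs7 fell (-0.60 ± 0.17, adjusted p = 0.0163). Adam10 encodes a membrane protease that can shed cytokine receptors. A second probe set of Adam10 differed by -0.08 and was not called. Other probe sets of Socs7 differed by 0.58 and -0.51, neither called, and by -0.87, called lower. Those of Socs6 differed by 0.61, called higher, and by 0.34, not called. Pias1 (-0.46) and Socs5 (-0.55), named after their values were seen, were the other 2 that fell. After median centring 0 of the 17 were called lower and after quantile normalization 1 was, while the difference of Socs7 was -0.52 (adjusted p = 0.0556) and -0.55 (adjusted p = 0.0251) with these scalings.

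Of 25 known STAT3 target genes 24 were tested, and 8 were higher and 1 lower (median 0.56). Over all 13257 genes 14.0% were called higher and 17.8% lower. The list was chosen with earlier results of these data known, so its count is a description only. Without hypoxia 1, 9 of these targets were higher and 1 lower. Lcn2, an iron-binding protein of inflammation, read 2801, 5718.5, 2355 and 2264 in hypoxia, against 33.4, 19.2, 117 and 13.5 in control (5.90 ± 0.43, adjusted p = 1.46e-06). Of its control arrays only control 3 was above the filter's 90.2, so the size of this rise is uncertain, and it was 6.53 with a pseudocount of 1 and 4.91 with 64. Cebpd, a transcription factor of the acute phase response, read 8129.5, 5507.5, 9003 and 7747 in hypoxia, against 2151, 1921, 2109 and 1474 in control (1.97 ± 0.18, adjusted p = 8.66e-06). The metallothioneins Mt2 and Mt1, which bind zinc, rose by 3.50 ± 0.33 and 3.57 ± 0.41. Lcn2 is also a product of neutrophils, and their part in its rise was not tested. Of the neutrophil markers, S100a8 and S100a9 were higher in the same group, while Csf3r and Elane were not called. Mpo and Cxcr2 were below the filter. The other 4 that rose, beyond the rule for named genes, were Myc, Mcl1, Bcl2l1 and Serpina3n, and some probe sets of Mcl1 pointed down, 1 of them called lower (-0.60). Hp, which encodes haptoglobin, was the 1 that fell (-1.79 ± 0.39, adjusted p = 0.00454), and was named after its value was seen. Pim1, Junb, Fos, Icam1 and Il4ra were among the 15 not called. So were Vegfa and Ccnd1, each with another probe set that was called lower (-1.46 and -0.95). Further probe sets of Cebpd (0.94), Mt1 (1.58), Mcl1 (1.04) and Bcl2l1 (1.77) were called higher.

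In the list of receptors that signal through JAK2 and STAT5, with their targets, 1 receptor and 1 target were called, both lower. Ghr, the growth hormone receptor, had 6311, 5107, 5274 and 6770.0 in hypoxia, against 8541, 13839.5, 12304 and 13054 in control (-1.01 ± 0.17, adjusted p = 0.000839). Igf1, its main target and a growth factor of muscle, had 697.5, 633, 1012 and 932 in hypoxia, against 2647, 2728, 1509 and 2243 in control (-1.45 ± 0.22, adjusted p = 0.000340). Both were below control on every hypoxia array, as were the muscle fibre, fibroblast and lymphocyte marker sums given above. For each gene 1 further probe set was called lower (-0.98 for Ghr and -1.51 for Igf1). The remaining ones were not called, with -0.20 for Ghr and -0.51 and -0.64 for Igf1, so the sizes of both falls are uncertain. The list held 5 tested genes of 6, with 0 higher and 2 lower by limma (0 higher at an unadjusted p under 0.05), and Igfals, Cish and Epor were not called.

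**Figure D5:**
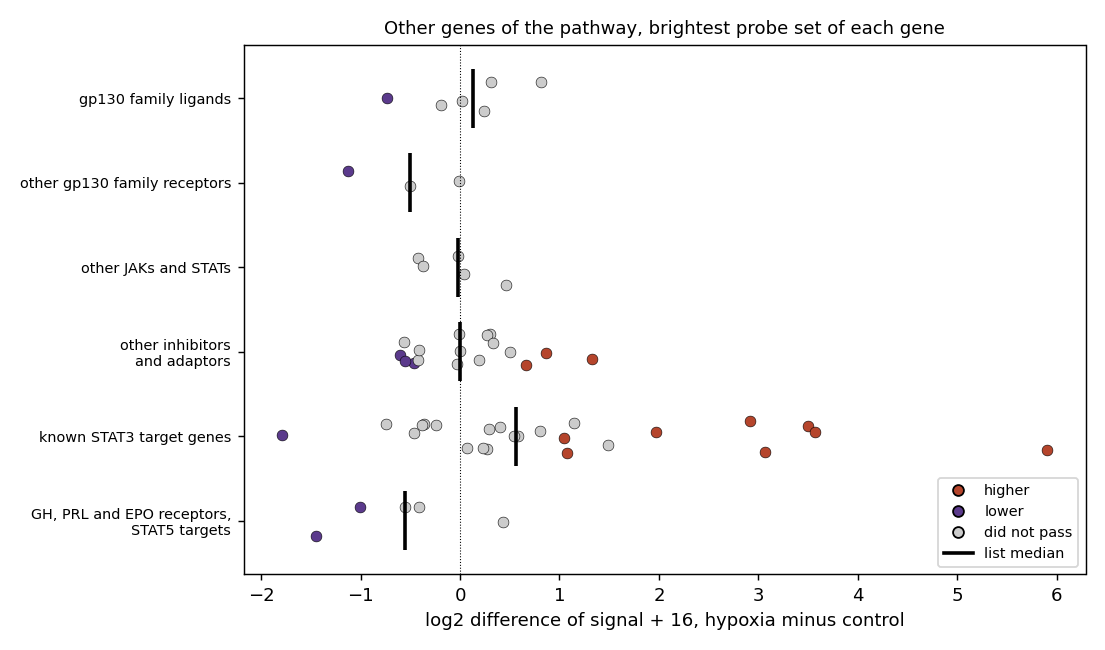
Log2 difference of signal + 16, hypoxia minus control, of each tested gene in the 6 lists, 1 row per list; colours mark genes called higher, called lower or not passing, and the black bar is the list's median. Of the 24 STAT3 targets 8 are called higher and 1 lower, while the lists of receptors and of other JAKs and STATs hold no gene called higher.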

How the data were processed

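Per the submitters' processing notes the authors used MAS5, and the deposited intensities are its signals, on a linear scale, with version and detection calls not given in the sources used here. The 2% trimmed mean was 500.0 on every array, so this scaling was kept. No 2 arrays were identical, and the number of arrays limits the precision. Sample titles gave the groups. The table held 45101 probe sets. Those for controls (64) and the dimmest 40% by mean log2(signal + 16) were dropped, which left 27022. The platform annotation gave 1 symbol to 34958 probe sets, several to 932 and listed none for 9211, and symbols were updated by gene identifier (RefSeq, GRCm38.p6) for 99.4% of the first.

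limma 3.58.1 (R 4.3.3) compared hypoxia with control by lmFit and trended eBayes, without a block, as a two-sided test adjusted by Benjamini-Hochberg over the 27022 probe sets, after it had been tested on simulated data. The members and gene lists were chosen with earlier results of these data known. From each list the text names up to 4 called genes of smallest p, and every called ligand, receptor, JAK or STAT. Alternatives were 2 other scalings (quantile, median centring), pseudocounts of 1 or 64, a filter of 60% or none, 1 probe set per gene, eBayes untrended or robust, weighted arrays, a replicate block, and each array left out. List counts under other scalings and without hypoxia 1 were added after seeing the data. Results on some list genes are not reported here.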

Additional observations from a re-analysis of the deposited data

Results flagged for a closer look

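On 5 of the 62 sets of 4 arrays checked (31 probe sets in 2 groups) 1 array stood far from the other 3 of its group, by a gap above 0.829 of the group's log2 range, where chance gives about 1 in 20. Hypoxia 3 was high on Il6ra 1452416_at (433, next 352, gap 0.931 of the range). Hypoxia 1 was low on Jak1 1433804_at (11.5, next 234, gap 0.848), and it is the array with the Gapdh ratio of 3.44. Control 4 was high on Il6st 1460295_s_at (2044, next 1858, gap 0.869). Control 3 was low on Jak1 1433803_at (949.6, next 1161, gap 0.868). Control 1 was high on Jak2 1421066_at (2001, next 1630.5, gap 0.838).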

How the results depend on the processing

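With 1 probe set per gene as the unit, 1959 were called higher and 2489 lower, among them 2 and 3 of the 9 members read in this way. Leaving out each array in turn gave 3 to 6 member probe sets called higher and 5 to 7 lower, with 2616 to 3379 and 3481 to 4699 over all probe sets. Of the 11 called member probe sets, those of Jak2, Osmr, Il6st 1421239_at, Jak1 1433805_at and 1433803_at and Stat3 1460700_at were called in each of the 19 alternatives that read them. Lifr 1454984_at was called in 10 of 19, Jak1 1433804_at in 10 of 18, Stat3 1459961_a_at in 12 of 17 and Socs3 1456212_x_at in 17 of 18. Il6st 1452843_at was called higher after median centring (adjusted p = 0.0347), with a 60% filter (adjusted p = 0.0470) and with the brightest probe set per gene (adjusted p = 0.0489). Signs turned on probe sets that were not called: Il6st 1437303_at was 0.013 after quantile normalization, 0.012 after median centring and -0.19 to 0.053 leaving out each array. Socs2 1442586_at was 0.0062 after quantile normalization, 0.075 with array weights and -0.20 to 0.17 leaving out each array. Likewise Socs2 1449109_at ran from -0.15 to 0.34, Socs2 1446085_at from -0.31 to 0.045 and Stat3 1426587_a_at from -0.14 to 0.41. The causes were not tested. With the replicate number as a block 2952 probe sets were higher and 3930 lower, 5 and 7 of them members. Socs3 1455899_x_at (adjusted p = 0.0469) was the 1 added. Samples of 1 number did not deviate together (r from -0.074 to 0.0068). Of the 4 hypoxia arrays 0 correlated best with the control array of their number. The labels do not say whether samples of 1 number share anything more, and these correlations cannot settle it. Dim probe sets, such as that of Socs1, allow no statement.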

Other observations

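Among the 4 hypoxia arrays, hypoxia 3 had the highest signal for 15 of the 24 tested STAT3 target genes (62.5%), against 28.0% of all 13257 genes, and hypoxia 4 had the lowest for 10 (41.7%), against 20.3% of all genes. This was noticed after the values were seen, concerns arrays within 1 group and carries no test. Of the targets called higher, Cebpd, Myc and Serpina3n had their highest signal in hypoxia 3, and Lcn2 and Mcl1 had it on other arrays. Mt1, Mt2 and Bcl2l1, also called higher, had their lowest hypoxia signal in hypoxia 3. Targets highest there also included Fos and Junb, which were not called, and Hp, which was called lower. Myc, a growth-promoting transcription factor, had 683, 860.4, 1579 and 494.5 in hypoxia 1 to 4, against 174.5, 99.7, 39.2 and 109 in control. All hypoxia arrays were above control for Myc. Ccl2, a monocyte chemokine that was not called, had 228, 624, 1194 and 102 in hypoxia, against 225, 298, 74.3 and 37.2 in control. Serpina3n, an acute phase protease inhibitor, had 164, 2116, 2138 and 411 in hypoxia, against 20.2, 82.7, 166 and 93.4 in control, and hypoxia 1 was within the control range.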
